A study of Homo sapiens with 3 samples.

Results

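The ErbB family consists of 4 receptor tyrosine kinases, EGFR, ERBB2, ERBB3 and ERBB4, and of EGF-type ligands that are made as membrane precursors and shed from the cell surface. TGFA, HBEGF, AREG, EREG and BTC encode ligands of EGFR, of which HBEGF, EREG and BTC also bind ERBB4, and NRG1 encodes neuregulin, a ligand of ERBB3 and ERBB4. Ligand binding lets the receptors pair, and the pairs signal through RAS and ERK and through PI3K and AKT. ERBB2 has no known ligand and acts as a partner, and SKOV-3 cells are known for amplification of the ERBB2 locus. These 10 genes were chosen by name, as a family, and the probe sets used were those with 1 of the names as their single gene symbol. Of the 10 genes, 9 had at least 1 such probe set, 38 probe sets in all, among 19775 genes on 41097 probe sets. No probe set was linked to AREG in the array annotation used here, so AREG was not analysed.

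SKOV-3, an ovarian cancer cell line, had been stably transduced by lentivirus with G9a shRNA1, with G9a shRNA2 or, as the control, with an shRNA against luciferase (Luc shRNA), and all 3 lines had been selected with puromycin. G9a, encoded by EHMT2, is a methyltransferase of lysine 9 of histone H3, a mark of silent chromatin, and the arrays were made to find the genes whose expression changes when it is depleted. Each line gave 1 Affymetrix expression array, which leaves no replicate error to test against, and no test was run. The log2 ratios of both G9a shRNAs share the same Luc shRNA array, so a stray control value moves both. In RNA from whole cultures, fewer cells of a kind and less RNA per cell cannot be told apart. The values are MAS5 signals, brightness on a linear scale, and each G9a shRNA signal was divided by the control signal and put on the log2 scale, where 1 is 2-fold higher and -1 is 2-fold lower. A probe set passed the filter when its signal reached the median of all values, 11.96, on at least 1 array. As a second view, called the floor here, signals under that median were raised to it before the ratio was taken. Each gene was represented by its brightest probe set, and the other probe sets of members are described beside it. Signals of different probe sets cannot be compared with each other, since probes differ in how they bind.

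EHMT2 read 29.7 with G9a shRNA1 and 79.2 with G9a shRNA2, against 182 with Luc shRNA, so the shRNA target was lower in both lines labelled for it. The other EHMT2 probe set past the filter read 23.9 and 16.4 with the G9a shRNAs and 27.6 with Luc shRNA. With probe sets grouped by their highest signal, the log2 difference between the arrays of both G9a shRNAs varied with an SD of 0.25 for those past the 75th percentile of all values, 89.7. The SD was 0.86 for those from the median up to that percentile, and 1.77 for those under the median, and these spreads include real differences between the shRNAs. The 3′ to 5′ signal ratio of the β-actin control probe sets was 1.83 with G9a shRNA1, 1.47 with G9a shRNA2 and 3.68 with Luc shRNA. For the GAPDH control probe sets it was 1.12, 1.14 and 1.15 in that order. The part of the β-actin difference in the ratios below was not tested. Of 6 epithelial markers, all 6 were above the median of all values on every array, with summed signals of 7083 in the G9a shRNA1 line, 8025 in the G9a shRNA2 line and 5136 in the Luc shRNA line, and the part of this difference in the results was not tested either. All 4 leukocyte markers were under the median on every array. Of 3 endothelial markers, CDH5 and VWF were under it on every array, and the summed signal was 32.7 with G9a shRNA1, 38.4 with G9a shRNA2 and 20.3 with Luc shRNA, most of it from PECAM1. Of 4 markers of stroma and mesothelium, LUM was under it on every array, and the sums were 75.6, 96.6 and 109.5 in that order, most of it from UPK3B. The part of these markers in the results was not tested. Of 4 ovarian lineage markers, PAX8 and WT1 were above the median on every array, and MUC16 and MSLN were under it on every array. Their summed signal was 589 with G9a shRNA1, 679 with G9a shRNA2 and 613 with Luc shRNA, most of it from PAX8.

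ERBB2, the receptor that pairs with ligand-bound partners, was read by a bright probe set on all arrays and differed little between them. At this probe set, 216836_s_at, the signal was 1420.5 with G9a shRNA1 and 1803 with G9a shRNA2, against 1828 with Luc shRNA. The array of G9a shRNA1 was the low one, and the array of G9a shRNA2 lay beside the control, with log2 ratios of -0.36 and -0.02. Of the other ERBB2 probe sets, both far dimmer, 210930_s_at gave 0.10 and 0.36 and 234354_x_at gave -1.11 and -0.35. Only the last is past 2-fold, with G9a shRNA1 alone, from signals of 19.0, 32.3 and 41.2 in the order G9a shRNA1, G9a shRNA2 and Luc shRNA. The 3 ERBB2 probe sets thus share no direction.

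EGFR, the receptor of EGF, TGFA and the other ligands of that type, lay below the control in both G9a shRNA lines at the brightest of its 9 probe sets, by less than 2-fold. The signal at 224999_at was 415 with G9a shRNA1 and 445 with G9a shRNA2, against 645 with Luc shRNA. Both G9a shRNA arrays lay below the control and close to each other, with log2 ratios of -0.64 and -0.54, or 0.64 and 0.69 times the control. The next probe set, 201983_s_at, read 323 and 414 with G9a shRNA1 and G9a shRNA2 and 447 with Luc shRNA, log2 ratios of -0.47 and -0.11. A further bright probe set, 201984_s_at, read 229 and 255 with the G9a shRNAs and 232 with Luc shRNA, log2 ratios of -0.02 and 0.13. The 3 bright EGFR probe sets therefore ran from a lower signal with both shRNAs to nearly no difference, and the value for EGFR depends on which one is taken. Of the remaining 6 EGFR probe sets, 3 passed the filter near the background and 3 did not. At 1565484_x_at the signals were 14.2 and 23.2 with G9a shRNA1 and G9a shRNA2, against 6.00 with Luc shRNA, ratios of 1.24 and 1.95 that came to 0.24 and 0.96 with the floor. At 1565483_at the ratios were 0.28 and 1.19, and at 211551_at they split, at 0.55 and -0.37. The 3 under the median on every array included ratios as far apart as -3.40 (211607_x_at) and 1.07 (211550_at) with G9a shRNA1.

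ERBB3, a receptor of neuregulin with little kinase activity of its own that signals through PI3K, lay above the control in both G9a shRNA lines at the brightest of its 5 probe sets, past 2-fold with G9a shRNA2 alone. At 202454_s_at its signal was 29.3 with G9a shRNA1 and 44.0 with G9a shRNA2, against 20.2 with Luc shRNA. The log2 ratios were 0.53 and 1.12, with the array of G9a shRNA2 the high one. The second ERBB3 probe set, 226213_at, of nearly the same brightness, gave 0.08 and 0.39, from signals of 27.2 and 33.8 with G9a shRNA1 and G9a shRNA2 and 25.8 with Luc shRNA. The next one, 1563253_s_at, ran the other way, with -0.90 and -0.16. All 3 had their highest signal between the median and the 75th percentile of all values. In that class, the arrays of both G9a shRNAs differ among themselves by more than 2-fold at 14.1% of probe sets.

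ERBB4, the other neuregulin receptor, was lower with both G9a shRNAs at the 1 probe set of 4 that passed the filter. At 214053_at its signal was 15.2 with G9a shRNA1 and 26.7 with G9a shRNA2, against 35.9 with Luc shRNA. The log2 ratios were -1.24 and -0.43, past 2-fold with G9a shRNA1 alone. The other 3 ERBB4 probe sets were under the median of all values on every array, with log2 ratios of 0.03 and 0.60 at 233498_at, -0.62 and -1.25 at 206794_at, and -0.13 and 0.62 at 233494_at. Of these, 206794_at alone was lower with both, as 214053_at was.

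**Figure D1:**
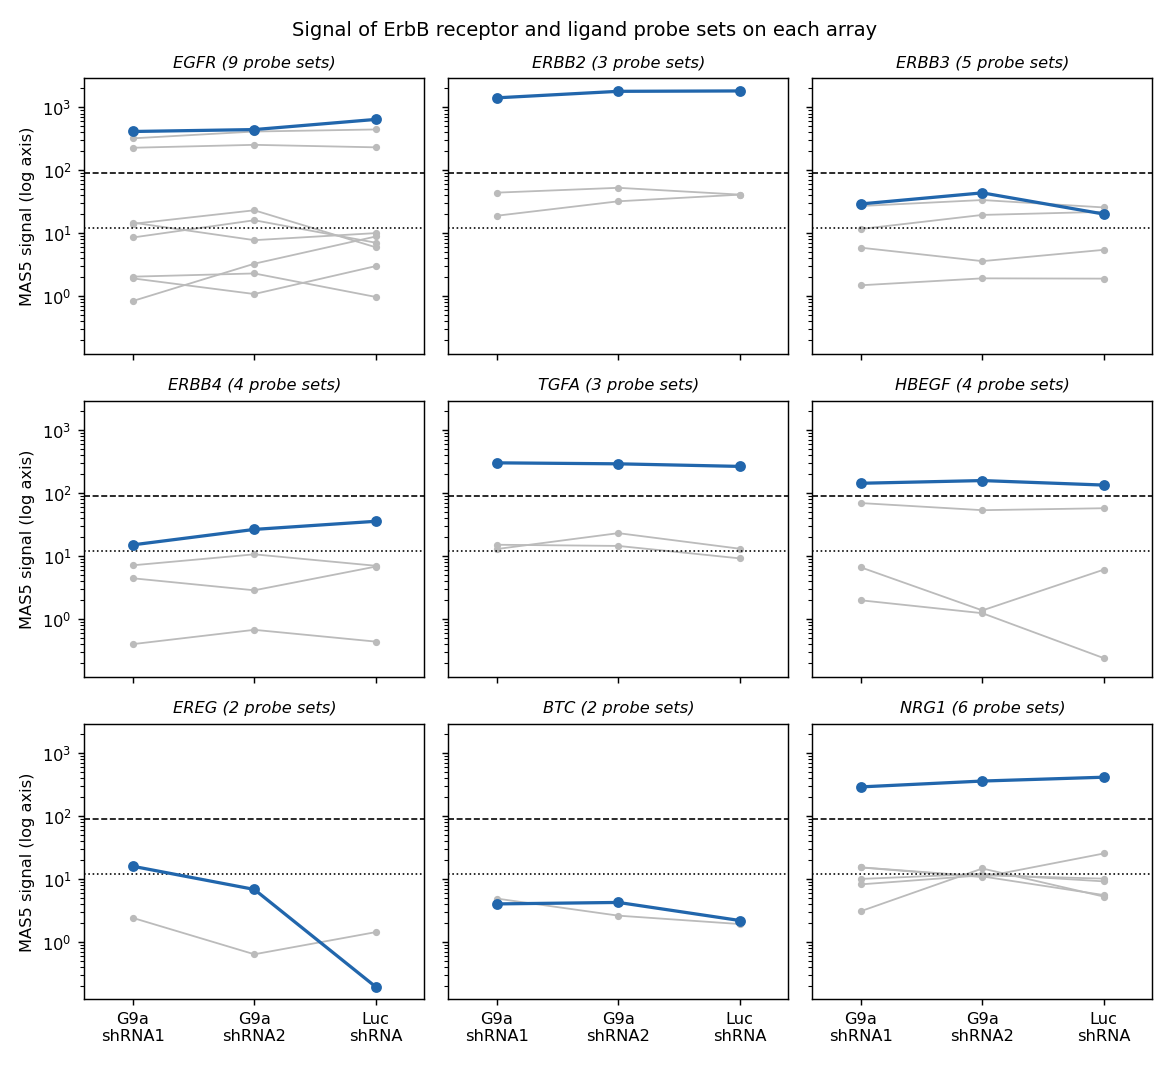
MAS5 signal (y axis, log scale) of every probe set of 9 ErbB receptor and ligand genes on the G9a shRNA1, G9a shRNA2 and Luc shRNA arrays (x axis), 1 line per probe set, with the brightest in blue; the dotted line is the median of all values and the dashed line the 75th percentile. The brightest lines of EGFR and NRG1 lie lower with both G9a shRNAs than with Luc shRNA, by less than 2-fold, the EREG line lies at 0.194 with Luc shRNA, and both BTC lines stay under the median.

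TGFA, which encodes a ligand of EGFR, was read by a bright probe set with nearly the same signal on all arrays. At 205016_at it was 304 with G9a shRNA1 and 294 with G9a shRNA2, against 267 with Luc shRNA, log2 ratios of 0.19 and 0.14, and of 0.19 and -0.01 after quantile normalization. The dimmer probe sets gave -0.02 and 0.82 (205015_s_at) and 0.72 and 0.66 (211258_s_at), the last with a control signal of 9.24, under the median, so that the floor brought it to 0.35 and 0.29. HBEGF, whose product binds heparan sulfate as well as EGFR and ERBB4, read 144 with G9a shRNA1 and 159 with G9a shRNA2, against 135 with Luc shRNA, at 203821_at. Its log2 ratios there were 0.10 and 0.24. A second HBEGF probe set, 38037_at, gave 0.27 and -0.10, from signals of 69.9, 53.9 and 57.9 in the order G9a shRNA1, G9a shRNA2 and Luc shRNA. The other HBEGF probe sets were under the median on every array, and 222076_at gave 3.05 and 2.37 there, from signals of 1.996 and 1.25 with G9a shRNA1 and G9a shRNA2 and 0.240 with Luc shRNA. Neither gene was past 2-fold with either shRNA at a probe set past the filter.

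NRG1, the ligand of ERBB3 and ERBB4, gave a lower signal in both G9a shRNA lines at the brightest of its probe sets, by less than 2-fold. At 206343_s_at its signal was 292 with G9a shRNA1 and 361 with G9a shRNA2, against 416 with Luc shRNA, log2 ratios of -0.51 and -0.20. The gene has many transcript forms and 6 probe sets, of which 5 passed the filter. The second, 206237_s_at, also lay below the control, with 15.3 and 10.8 with G9a shRNA1 and G9a shRNA2 and 25.6 with Luc shRNA, ratios of -0.74 and -1.25, or -0.74 and -1.10 with the floor. The other 3 past the filter lay under the median in the control, with Luc shRNA signals between 5.27 and 9.21, and 2 of them were higher with both shRNAs, among them 208232_x_at at 1.46 and 0.98, or 0.36 and 0.00 with the floor.

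EREG, which encodes epiregulin, a ligand of EGFR and ERBB4, was the single member past 2-fold with both G9a shRNAs, and the size of its change is set by a control signal near 0. At 205767_at the signal was 16.0 with G9a shRNA1 and 6.86 with G9a shRNA2, against 0.194 with Luc shRNA. Of the 3, the array of G9a shRNA1 is the only one above the median of all values, so EREG passed the filter through the condition in which it is high. The log2 ratios were 6.37 and 5.14 as deposited, and 0.42 and 0.00 with the floor. The second EREG probe set, 1569583_at, was under the median on every array and split in direction, with 0.75 and -1.17. By the order of protein-coding genes in the RefSeq annotation of GRCh38.p14, EPGN, EREG, AREG and BTC, which all encode EGF-type ligands, stand side by side in this order. BTC, which encodes betacellulin, had 2 probe sets, both under the median on every array. The brighter, 241412_at, read 4.04 with G9a shRNA1 and 4.26 with G9a shRNA2, against 2.20 with Luc shRNA, and the other, 207326_at, read 4.91 and 2.63 with the G9a shRNAs and 1.93 with Luc shRNA. Every one of these signals becomes the median with the floor, so both ratios are then 0. EPGN and AREG had no probe set with a single symbol and were not measured here.

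The promoter of EREG is shown as that of the member with the largest ratios as deposited, although these rest on signals under the median with G9a shRNA2 and with Luc shRNA. These arrays measure RNA and hold no value at the promoter itself. The stretch is chr4:74364895-74365194 of GRCh38.p14, plus strand, from RefSeq, and runs from 250 bases before the start of the gene to 50 bases after it. Capitals mark the 1 match to TATAAA, searched on both strands, which begins 32 bases before the start. Such a match is found in 11.5% of the 35116 promoters of this length. The stretch holds 12 CpG dinucleotides, against a median of 14 over those promoters, with quartiles of 4 and 28.
EREG: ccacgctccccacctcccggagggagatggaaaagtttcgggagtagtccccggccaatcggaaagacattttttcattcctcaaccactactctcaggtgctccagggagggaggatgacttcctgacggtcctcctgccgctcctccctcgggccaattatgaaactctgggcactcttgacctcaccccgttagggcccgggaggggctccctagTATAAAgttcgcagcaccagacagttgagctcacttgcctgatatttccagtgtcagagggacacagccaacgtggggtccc

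**Figure D2:**
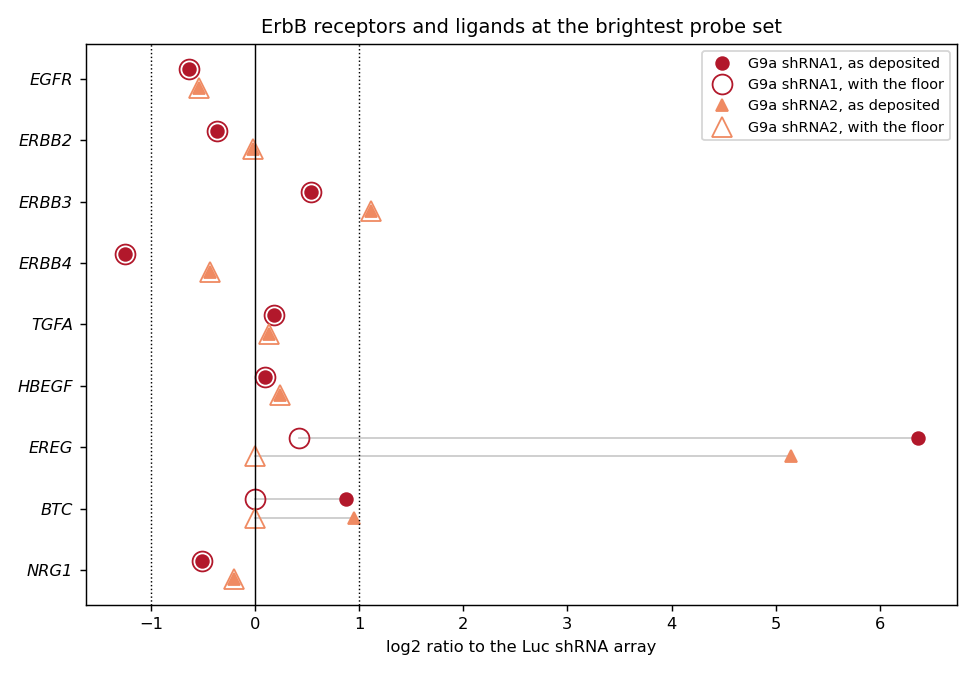
Log2 ratio to the Luc shRNA array (x axis) at the brightest probe set of each of 9 genes (y axis) for the G9a shRNA1 array (circles) and the G9a shRNA2 array (triangles); filled symbols are values as deposited, open ones have signals under the median raised to it, and dotted lines mark 2-fold. EREG moves from 6.37 and 5.14 to 0.42 and 0.00 with the floor, and ERBB3 and ERBB4 are each past 2-fold with 1 shRNA.

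Across the family, 8 of the 9 measured genes passed the filter. Of these 8, EREG was past 2-fold higher with both shRNAs, a rule that 2.57% of the 13192 genes past the filter met, and none was past 2-fold lower, which 1.66% of genes were. With the looser rule, past 2-fold with at least 1 shRNA and on the same side with the other, EREG and ERBB3 were higher and ERBB4 was lower. That rule was met by 5.26% of genes in the higher and by 5.59% in the lower direction. With the floor, no member was past 2-fold with both shRNAs, as against 0.955% of genes higher and 0.728% lower. Among the 5 members that reached the 75th percentile on an array, EGFR, ERBB2, TGFA, HBEGF and NRG1, none was past 2-fold with both, as against 0.611% of genes higher and 0.467% lower. With so few members, such counts lie within a gene or so of these shares, and they say nothing particular of the family. At the brightest probe set, the 4 receptors had a median of the mean log2 ratio of -0.39 and the 5 measured ligands of 0.17, and all 19775 genes had 0.04. Neither group shared a direction. Of the receptors, ERBB3 lay above the control, at 0.83, and the others below it. Of the ligands, NRG1 lay below the control, at -0.36, and the others above it. The medians include ERBB3, ERBB4, EREG and BTC, none of which reached the 75th percentile on an array.

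Ratios of the family lay closer to 0 at the brighter probe sets. Over all probe sets, the difference between the arrays of both G9a shRNAs likewise narrowed with signal. It was past 2-fold at 49.7% of probe sets under the median, 14.1% up to the 75th percentile and 0.443% past it. At the 7 probe sets above the 75th percentile on all arrays, which belong to EGFR, ERBB2, TGFA, HBEGF and NRG1, the log2 ratios ran from -0.64 to 0.19 with G9a shRNA1 and from -0.54 to 0.24 with G9a shRNA2, and 0 were past 2-fold. Of the 17 others past the filter, 9 were past 2-fold with 1 shRNA or the other, and 2 of them with both on the same side, 1 of EREG and 1 of EGFR. Of the 14 probe sets under the median on every array, 8 were past 2-fold with 1 shRNA or the other, and the ratios with G9a shRNA1 ran from -3.40 to 3.05. Of the 24 past the filter, 11 were higher with both shRNAs, 8 were lower with both and 5 lay on opposite sides. Among all genes past the filter, each at its brightest probe set, 44.0% were higher and 30.8% lower with both. The family's counts are near those shares and say nothing particular of it. The probe set counts past 2-fold have no share over all probe sets beside them here. Probe sets of 1 gene share their RNA and are not replicates.

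**Figure D3:**
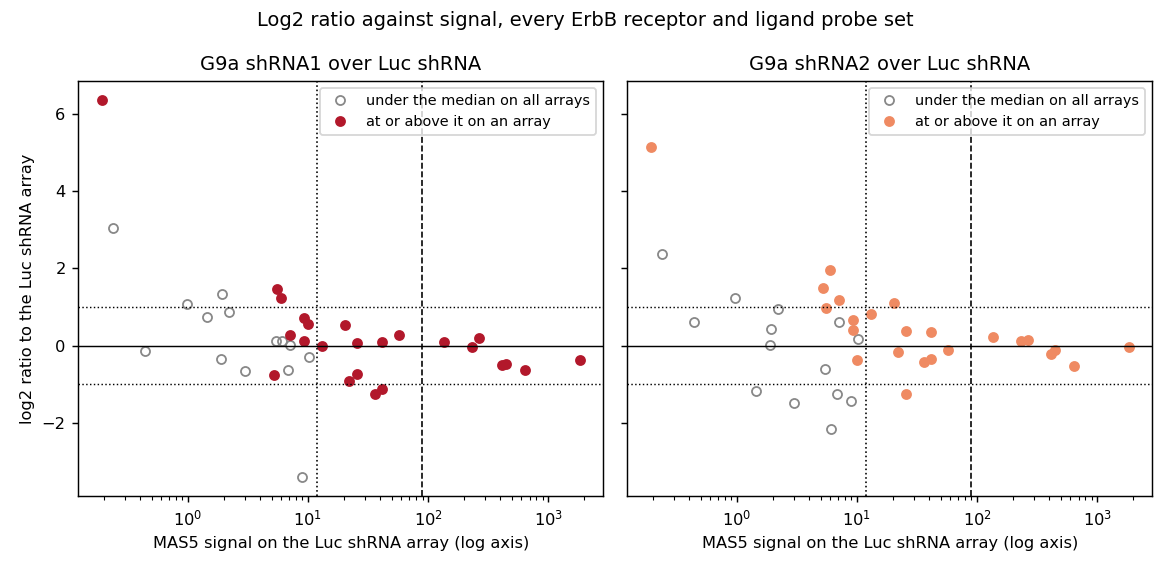
Log2 ratio to the Luc shRNA array (y axis) against the Luc shRNA signal (x axis, log scale) for the 38 probe sets of the ErbB receptors and ligands, with G9a shRNA1 (left) and G9a shRNA2 (right); open points are under the median on all arrays, dotted lines mark the median and 2-fold, and the dashed line marks the 75th percentile. The points close in on 0 as the signal grows, and the 7 probe sets above the 75th percentile on all arrays stay between -0.64 and 0.24.

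Other genes of the pathway were taken from 8 lists by role, chosen with earlier results of these data known, each gene at its brightest probe set. Of 9 genes listed for a part in ligand shedding, all 9 passed the filter. Of these, 6 were above the control with both shRNAs and none below it with both. Among all genes past the filter, 44.0% were above and 30.8% below. None of the 9 was past 2-fold with either shRNA, and the list had a median log2 ratio of 0.13. Of 12 measured adaptors and transducers of the RAS and ERK branch, none was past 2-fold with both, and the median was -0.02. GAB2, a docking protein, was past 2-fold lower with G9a shRNA1 alone (-1.19 and -0.25), and it was picked with its values in view. Of 5 measured PI3K and AKT genes, 1 was past 2-fold lower with both, PIK3R1, and none was higher, where 1.66% of all genes were lower and 2.57% higher by that rule. Of 8 co-receptors and stabilizers, 7 passed the filter and none was past 2-fold with either shRNA on the same side as the other. Of 4 measured further EGF-type ligands, 1 passed the filter, NRG2, with 0.28 and 0.22, also picked with its values in view.

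PIK3R1, the regulatory subunit p85α of PI3K, through which the receptors reach AKT, read 85.0 with G9a shRNA1 and 136 with G9a shRNA2, against 285 with Luc shRNA. Both G9a shRNA arrays lay below the control, with log2 ratios of -1.74 and -1.06. The other PIK3R1 probe sets gave -1.63 and -0.87, and -2.32 and -1.58, so that all 3 were lower with both shRNAs.

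Genes that ERK can switch on in response to such receptors were above the control as a list, by RNA. Of 12, 2 were past 2-fold higher with both G9a shRNAs and 0 were lower, where 2.57% and 1.66% of all genes were, and 11 were above the control with both, where 44.0% of all genes past the filter were. The median log2 ratio was 0.60, against 0.04 over all genes, with 0.66 for G9a shRNA1 and 0.53 for G9a shRNA2. The paper reported lower ERK phosphorylation after G9a depletion, a protein measure that these arrays do not hold. How it relates to the RNA values was not tested. SPRY4, an inhibitor of RAS and ERK signaling, read 150 with G9a shRNA1 and 151 with G9a shRNA2, against 57.4 with Luc shRNA, log2 ratios of 1.38 and 1.40. For SPRY4 the paper also reported quantitative RT-PCR and, by ChIP in SKOV-3 cells, G9a at its promoter. It further reported an inverse correlation of SPRY4 with G9a expression in independent datasets. The study picked SPRY4 from these same arrays, so its direction here is not independent evidence, and SPRY4 counts in the 2, the 11 and the median above. The list was also chosen with earlier results of these data known, so these figures are not independent evidence either. DUSP6, a phosphatase that inactivates ERK, read 182 with G9a shRNA1 and 135 with G9a shRNA2, against 60.4 with Luc shRNA, log2 ratios of 1.59 and 1.16. The second DUSP6 probe set gave 2.19 and 2.23, and the last gave 4.20 and 3.93, or 2.67 and 2.39 with the floor, from a Luc shRNA signal of 4.13. All 3 DUSP6 probe sets were thus past 2-fold with both shRNAs. ETV4 and DUSP4, picked with their values in view, were past 2-fold with G9a shRNA1 alone at the brightest probe set. ETV4, an ETS transcription factor, gave 1.25 and 0.90 there, and 1.72 and 1.65 at its other probe set. DUSP4, a nuclear phosphatase of ERK, gave 1.14 and 0.84 there, and its other probe sets, at 0.71 and 0.43 and at 0.94 and 0.70, were not past 2-fold with either. EGR1, an immediate early transcription factor also picked with its values in view, was the 1 gene of the list not above the control with both, at 0.00 and -0.45.

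The list named inhibitors and degraders of the receptors also held genes of receptor turnover and of downstream signaling. Of its 16 genes, 15 passed the filter. Of these, 7 were above the control with both shRNAs and 4 below it with both. These shares are near the 44.0% and 30.8% of all genes. None was past 2-fold with both. The list had a median of 0.14. SPRY2, a feedback inhibitor of receptor signaling, read 60.9 with G9a shRNA1 and 50.001 with G9a shRNA2, against 28.9 with Luc shRNA, log2 ratios of 1.07 and 0.79. ERRFI1, which binds and blocks the kinase domain of EGFR, gave 0.83 and 0.52. SH3GL2, an endophilin of receptor endocytosis, was past 2-fold with G9a shRNA2 alone, at 0.74 and 1.25. These 3 were picked with their values in view. Of 7 genes that stand next to ERBB2 in the genome, 6 passed the filter, and none was past 2-fold with both. GRB7, an adaptor that binds ERBB2, read 159 with G9a shRNA1 and 254 with G9a shRNA2, against 111 with Luc shRNA, log2 ratios of 0.52 and 1.19, and was picked in the same way. ERBB2 itself gave -0.36 and -0.02 at its bright probe set. Over all 7 neighbours, under the filter or not, the median was 0.18, and 0.05 with the floor.

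**Figure D4:**
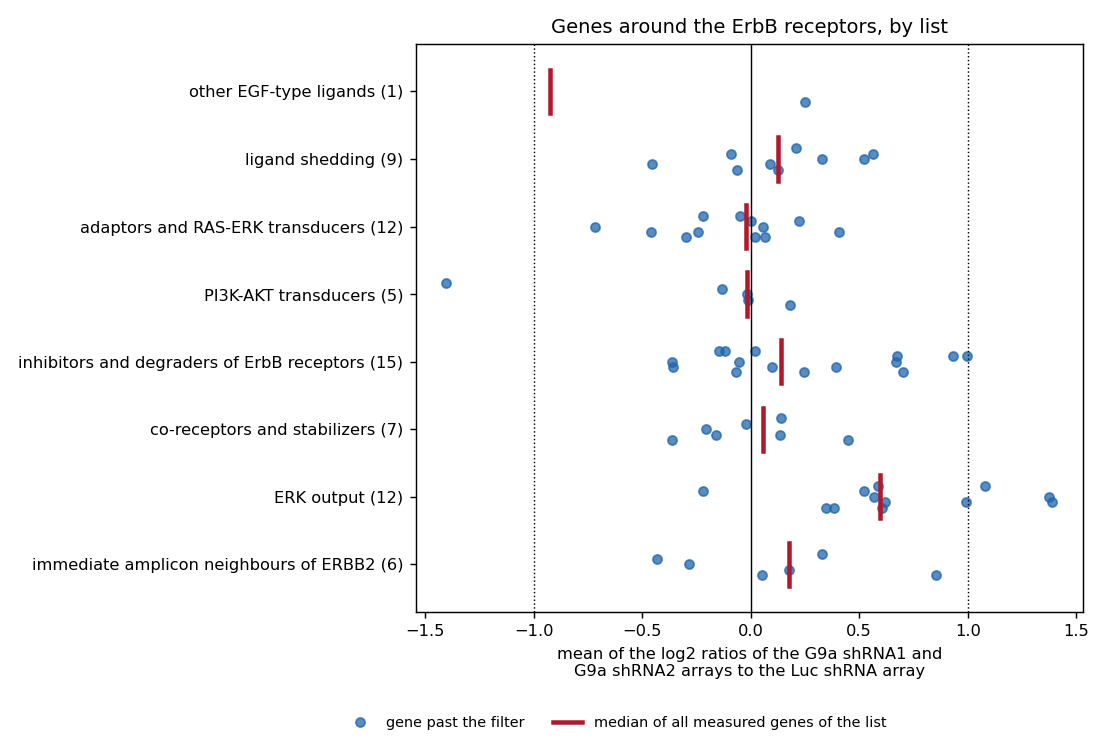
Mean of the log2 ratios of the G9a shRNA1 and G9a shRNA2 arrays to the Luc shRNA array (x axis) for genes around the ErbB receptors, by list (y axis, with the number of genes past the filter); each point is a gene and the red bar is the median over all measured genes of the list, those under the filter included. Of the 12 ERK output genes, 11 lie above 0, and PIK3R1 lies alone at the left of the PI3K and AKT list.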

How the data were processed

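The deposited values are probe set signal intensities of 54675 probe sets on 3 arrays, which the authors computed with MAS5 on a linear scale; the version, settings and detection calls of MAS5 are not given in the sources used here. The medians of the arrays lay between 11.7 and 12.3 and the 2% trimmed means between 105 and 115, so no common scaling target was assumed. Values were used as deposited. Probe sets were linked to genes through the Entrez identifiers of the platform annotation: 41097 had 1 symbol, 1801 several and 11777 none. The filter, the floor and the threshold of 2-fold are described with the results, and the brightest probe set is the one with the highest mean log2 signal. No test was run, since each condition has 1 array and the shRNAs were kept apart as different reagents. The members, lists and thresholds were chosen with earlier results of these data known. Named are all members, EHMT2, and up to 3 genes per list past 2-fold with both shRNAs; others are said to be picked with their values in view. Alternatives were other floors and filters, median centring, quantile normalization, the mean over probe sets, each shRNA alone, and 1.5-fold and 3-fold. The software was Python 3.11.15, numpy 2.4.6, pandas 2.3.3 and, for the plots, matplotlib 3.10.9.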

Additional observations from a re-analysis of the deposited data

Results flagged for a closer look

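At 208231_at, 1 of the 5 NRG1 probe sets past the filter, the shRNAs lay on opposite sides of the control, with a log2 ratio of -0.77 for G9a shRNA1 and 1.48 for G9a shRNA2. The signal was 3.10 with G9a shRNA1 and 14.8 with G9a shRNA2, against 5.27 with Luc shRNA, and the ratios were 0.00 and 0.30 once signals under the median were raised to it. Each value is 1 array, and the difference between the shRNAs was not tested.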

How the results depend on the processing

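No paired analysis was possible because each condition has 1 array. Of the 18 log2 ratios of members at the brightest probe set, none left the spread between the G9a shRNA arrays under median centring or quantile normalization, and 1 changed sign, TGFA with G9a shRNA2. Quantile normalization shifted the G9a shRNA2 ratios by -0.13 at the median of genes past the 75th percentile. With the second brightest probe set, an alternative added once the data had been seen, 7 of the 18 changed sign, and EREG turned to -1.17 with G9a shRNA2. With the mean over all probe sets 3 changed sign. The count of members past 2-fold higher with both shRNAs, 1 as reported, was 0 with either floor or the stricter filter (75th percentile), and 2 with G9a shRNA2 alone. The count lower, 0 as reported, was 1 with G9a shRNA1 alone. With at least 1 shRNA, the count higher, 2 as reported, was 1 with the floor at the median, quantile normalization, the mean over probe sets or a threshold of 3-fold, and 0 with the floor or the filter at the 75th percentile. The count lower, 1 as reported, was 0 with the floor or filter at the 75th percentile, the mean over probe sets or 3-fold, and 2 at 1.5-fold. The median of the further EGF-type ligands, -0.92 over 4 genes of which 3 are under the filter, was 0 with either floor, and without a filter 1 of them was past 2-fold lower and 1 ERBB2 neighbour higher. Past 2-fold with both, the ERK output genes numbered 2 as reported, 1 after quantile normalization, 3 with the mean over probe sets and 4 at 1.5-fold. They numbered 0 with the floor at the 75th percentile or at 3-fold. Genes of the list of inhibitors and degraders numbered 0 as reported, 1 with the mean over probe sets and 4 at 1.5-fold. PIK3R1 was not past 3-fold with both, which left 0 in its list. Of 40 list medians under an alternative, 38 kept within the SD between the G9a shRNA arrays for the brightest probe sets, 0.25. The cause of these differences was not tested. Signal over background limits EREG, BTC, ERBB3 and ERBB4, none of which reached the 75th percentile of all values on an array.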
